A study of Populus deltoides with 12 samples.

Results

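The 65 genes described here were lower in purple than in green leaves of the poplar cultivar 'Zhongshanyuan poplar' (ZSY), while purple QHP and green L2025 leaves held them at nearly the same level. They were chosen by these values among the 46170 genes measured. With d1 as the mean log2(FPKM + 1) of F_P minus that of F_G, and d2 as the mean of P minus that of G, a gene was taken if d1 was at most -2, d2 lay within 0.5 of 0, the mean in F_G was at least 10 FPKM, and its identifier began with Podel. FPKM is the number of fragments scaled to transcript length and to the library size that the authors used. Genes that the study lists for anthocyanin synthesis and its regulation were to be left out, but none of them met the rule, and 65 genes resulted with or without this step. The differences F_P vs. F_G and P vs. G of these genes are therefore a description. Where limma's calls for them are counted, they follow from the rule and support nothing.

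Leaves of *Populus deltoides* were sequenced in 12 libraries, 3 biological replicates in each of 4 groups. F_P and F_G are fully expanded purple and green leaves of ZSY, P is the fourth and the fifth fully expanded leaves of the purple cultivar 'Quanhong poplar' (QHP), and G is the same leaves of the green leaf poplar L2025. All plants were field-grown seedlings of 2 years with the genotype labelled WT, and the leaf position of F_P and F_G is not given. F_P and F_G thus share a cultivar, whereas in P vs. G leaf color and cultivar cannot be told apart.

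Purple color in poplar leaves comes from anthocyanins, flavonoid pigments that are made at the endoplasmic reticulum and stored in the vacuole. Their synthesis is switched on mainly by MYB and bHLH transcription factors together with a WD40 protein. Other processes of a leaf, such as growth of the cell wall and photosynthesis, can also differ between purple and green leaves.

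The libraries held 14543579 to 16628923 fragments on annotated genes, and replicates of each group varied more than counting alone gives (chi-square of 2.77 to 10.4 per gene, where 1 would be counting noise). At least 1 FPKM in every library was reached by 23 of 23 listed photosynthesis antenna protein genes, 29 of 46 photosynthesis genes, 5 of 25 DNA replication genes, and 10 of 34 microtubule motor genes. The antenna genes summed to 7392 to 7605 FPKM in F_P and 9340 to 10910 FPKM in F_G, and to 6131 to 6557 FPKM in P and 20767 to 23791 FPKM in G. The 25 listed DNA replication genes, a sign of dividing cells, summed to 105 to 111 FPKM in F_P and 157 to 181 FPKM in F_G, and to 133 to 143 FPKM in P and 205 to 252 FPKM in G. The 46 listed photosynthesis genes summed to 8763 to 8791 FPKM in F_P and 11782 to 13176 FPKM in F_G, and to 9288 to 9334 FPKM in P and 26076 to 27458 FPKM in G. The 34 listed microtubule motor genes, of which 1 is among the 65, summed to 57.9 to 61.2 FPKM in F_P and 126 to 146 FPKM in F_G, and to 110 to 115 FPKM in P and 229 to 244 FPKM in G. None of these genes was at 0 in all libraries. All 4 lists were lower in the purple leaves of both comparisons. However, they hold only genes that the study lists as differentially expressed, chosen on the same libraries. A difference in their sums was thus partly built in, and nothing is read from it. Their part in the values below was not tested. In whole leaves, fewer cells of a type and less RNA per cell cannot be told apart.

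The 65 genes were a small part of the genes lowered in purple ZSY leaves. A d1 of at most -2 and at least 10 FPKM in F_G were found for 506 genes. Of these, 216 met the same limit in P vs. G (d2 of at most -2). A further 182 had a d2 between -2 and -0.5, and 43 were higher in P by 0.5 or more. The remaining 65 genes made up 12.9%. Their d1 ranged from -4.95 to -2.02 with a median of -2.87, and it was -3 or less in 27 genes and -4 or less in 7 genes. Over all genes tested, the median d1 was 0.04 and the median d2 was -0.02. The genes at the edges of the rule had a d1 of -2.021 inside and -1.997 outside, an absolute d2 of 0.49 inside and 0.51 outside, and a mean in F_G of 10.01 FPKM inside and 9.99 FPKM outside.

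The mean level of the 65 genes was 0.319 to 359 FPKM in F_P (median 2.01) and 10.01 to 1966 FPKM in F_G (median 23.9). In P it was 0.548 to 313 FPKM (median 13.4) and in G 1.03 to 279 FPKM (median 13.7). A mean under 1 FPKM was found for 17 genes in F_P, 0 in F_G, 1 in P, and 0 in G. The levels in F_P rested on a median of 38 fragments per gene and library, against 619 in F_G, and 11 genes had fewer than 10 fragments in a library of F_P. In 64 of the 65 genes all 3 F_P libraries were below all 3 F_G libraries, a pattern that 30.2% of all genes tested showed, and limma called 64 lower in F_P, against 12.5% of all genes tested. These counts follow from the rule. P and G libraries did not overlap in 22 of the 65 genes (6 with P above G and 16 with P below G), against 69.5% of all genes tested. Between P and G, limma called 0 of the 63 that could be tested, against 26.1% of all genes tested. Both counts also follow from the rule. A call needed a log2 difference of 1 or more in size, which the limit on d2 does not allow. Smaller differences between P and G are thus not excluded.

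**Figure D1:**
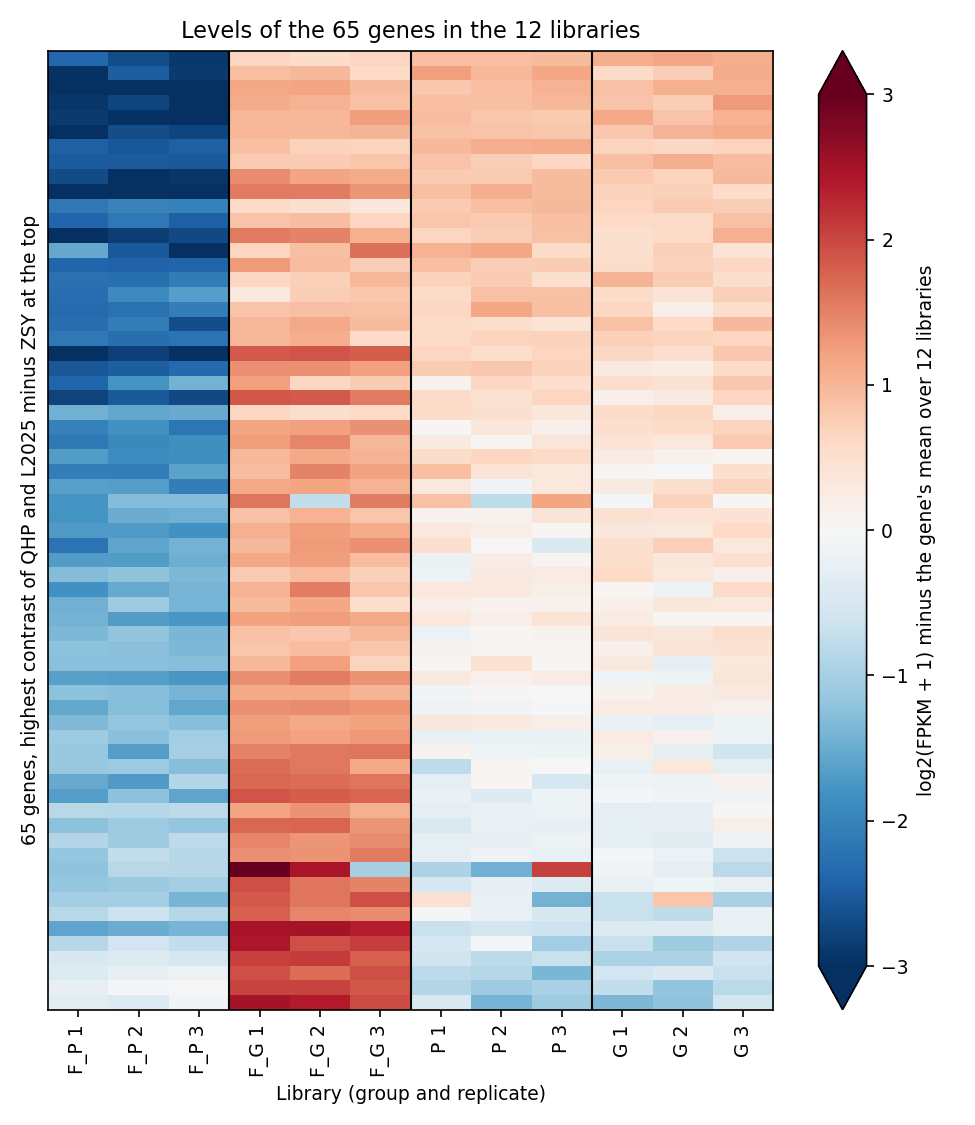
Levels of the 65 genes (lines) in the 12 libraries (columns), as log2(FPKM + 1) minus the mean of the gene, with blue for lower and red for higher values. F_P is lowest in most lines, and toward the bottom P and G approach F_P while F_G stands alone as high.

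The position of QHP and L2025 relative to the ZSY leaves was not fixed by the rule. Both P and G were nearer to F_G than to F_P in 44 genes, both were nearer to F_P in 19 genes, and in 2 genes they were split. These counts are a description, as the rule can affect them. Its limit on d2 is met more easily where P and G are low, and it chose genes by F_P and F_G. Many genes of either kind were intermediate. On a scale from F_P (0%) to F_G (100%), the mean of P and G lay at -40.9% to 113% with a median of 70.8%. P and G were both within 0.5 (log2) of F_G in 18 genes and both within 0.5 of F_P in 2 genes. In 2 genes both were above F_G, and in 4 genes both were below F_P. F_P was the lowest of the 4 groups in 60 genes and F_G the highest in 57 genes. All 3 F_P libraries were below the 9 other libraries in 57 genes (87.7%), against 14.4% of all genes tested, and all 3 F_G libraries were above the 9 others in 44 genes (67.7%), against 6.44%. The rule used F_P and F_G, so nothing is read from the last 2 counts.

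**Figure D2:**
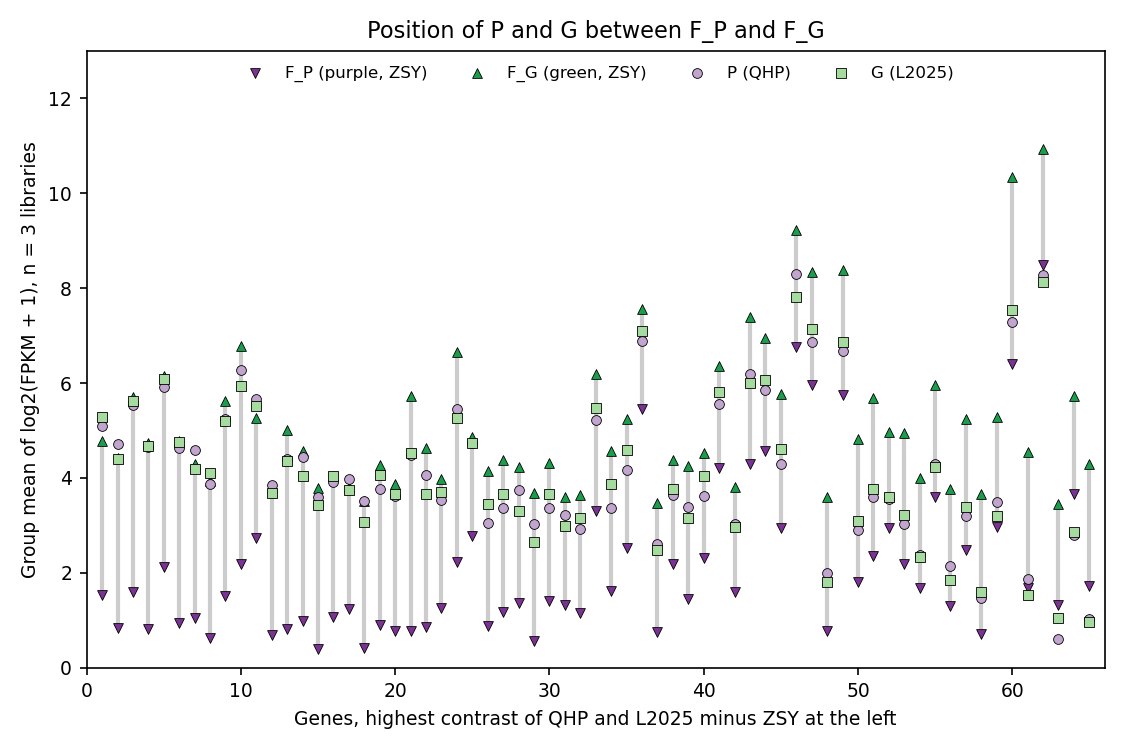
Group means of log2(FPKM + 1) for each of the 65 genes (3 libraries per group), with a grey line from F_P to F_G. P and G lie close together by the rule. They are nearer to F_G for genes toward the left and nearer to F_P for genes toward the right (19 genes), with many intermediate.

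The mean of P and G was compared with the mean of F_P and F_G in a fit of all 12 libraries with limma. This contrast gives the distance of QHP and L2025 from the ZSY midpoint, which is the mean of F_P and F_G on the log2 scale. Its error is independent of d1 and d2 only where replicates vary alike in both groups of a comparison. This was not so in every gene (Podel.07G026600: SD of 0.35 FPKM in F_P and 18.8 FPKM in F_G). The size of the contrast is not independent of d1. A gene with a large d1 whose P and G are near either ZSY group is far from the midpoint. The minimum in F_G also favors genes that are high in ZSY. The calls thus restate the positions given above, and nothing is read from their share beside that of all genes. The same holds for the distances and adjusted p values of single genes given below. They describe position and are no evidence beyond the choice of the genes. Among the 65 genes, 23 (35.4%) were above the ZSY midpoint in QHP and L2025 and 5 (7.69%) were below it, where a call needed an adjusted p no higher than 0.05 and a log2 difference of 1 or more in size. Of all genes tested, 5.11% were above and 4.62% below. The median difference was 0.60 in the 65 genes, of which 46 were above 0, and 0.03 in all genes tested. The 23 genes above it differed by 1.01 to 2.03 (adjusted p of 0.000935 or less in limma) and the 5 genes below it by -2.0004 to -1.42 (adjusted p of 1.06e-05 or less). The other 37 genes lay between -0.95 and 0.92. A low F_P draws the midpoint down, so that a gene above it need not be higher in QHP and L2025 than in green ZSY leaves. For the 216 genes lowered in both purple groups, which share the libraries, 121 were above and 1 below, with a median of 1.11.

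**Figure D3:**
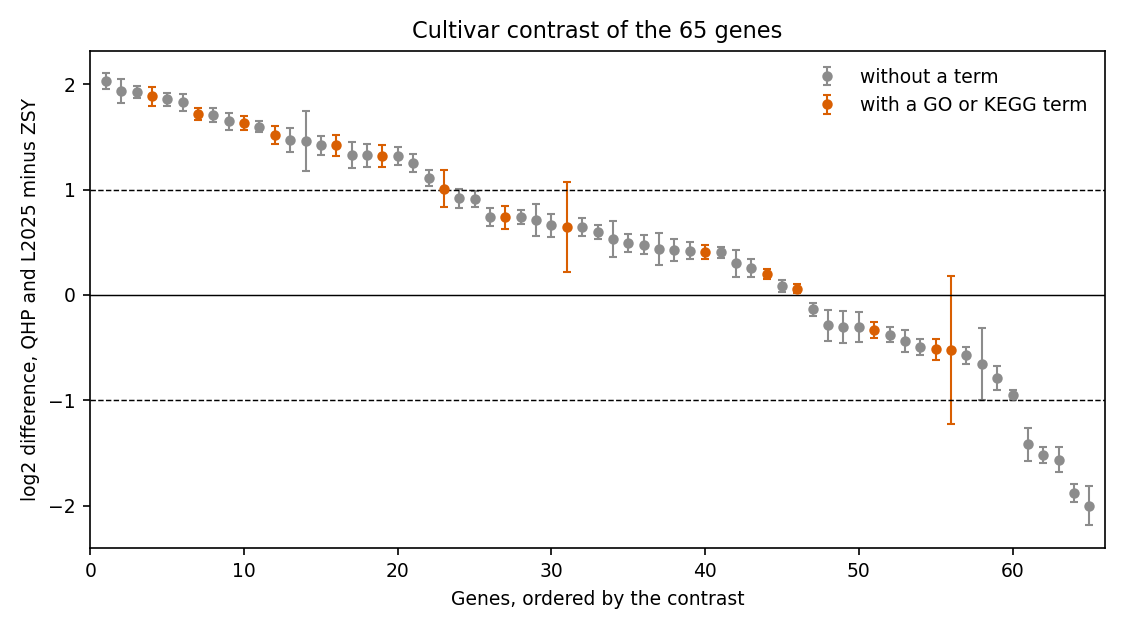
Log2 difference of QHP and L2025 minus ZSY for each of the 65 genes with its standard error, ordered by size, with dashed lines at -1 and 1. The 15 genes with a term are in orange, of which 7 were called above the ZSY midpoint and 0 below.

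The 23 genes above the ZSY midpoint had a median of 0.952 FPKM in F_P and 23.9 FPKM in F_G, and of 21.0 FPKM in P and 17.1 FPKM in G. The 5 genes below it had a median of 2.32 FPKM in F_P and 22.6 FPKM in F_G, and of 2.78 FPKM in P and 1.90 FPKM in G. The position of P and G in these sets follows from how the sets were split, while the medians of green ZSY leaves were close. The 37 other genes had medians of 3.71 FPKM in F_P and 28.3 FPKM in F_G, and of 10.7 FPKM in P and 11.8 FPKM in G.

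No name is paired with the gene identifiers in the deposited data, and functions were taken from the GO and KEGG terms that the study lists for its differentially expressed genes. These lists were chosen on the same libraries and are shortened in the copy read here. A term was found for 15 of the 65 genes, and 50 genes remained without a term. Only cell wall organization or biogenesis and cytoskeletal protein binding held more than a single gene of the 65.

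The cell wall group held Podel.10G143200 and Podel.15G062100. Podel.10G143200 (chromosome 10, 14124645 to 14126600, minus strand, 3 exons) has the term chitinase activity, enzymes that cleave chitin of fungal walls and related polymers. It was measured at 3.96, 3.20, and 3.48 FPKM in F_P and at 115, 115, and 96.5 FPKM in F_G, and at 72.3, 82.9, and 74.7 FPKM in P and 62.1, 63.9, and 56.1 FPKM in G. Only the F_P libraries were low, with a d1 of -4.59, and the groups of each comparison did not overlap. In QHP and L2025 it was above the ZSY midpoint by 1.63 ± 0.06 (log2, SE; adjusted p = 1.55e-09, limma).

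Podel.15G062100 (chromosome 15, 7955226 to 7958043, minus strand, 6 exons) is listed for cell wall organization, the building and loosening of the wall around each plant cell. Its level was determined at 0.741, 0.949, and 0.644 FPKM in F_P and at 27.8, 26.0, and 23.4 FPKM in F_G, and at 23.8, 23.6, and 25.3 FPKM in P and 23.0, 21.1, and 30.9 FPKM in G. The 3 F_P libraries stood alone below 1 FPKM, and F_G, P, and G overlapped. The distance of QHP and L2025 from the ZSY midpoint was the highest of the 15 genes with a term (1.89 ± 0.09, adjusted p = 7.55e-09, limma). Of the 38 other genes listed for this term, 4 were higher and 21 lower in F_P of 32 tested, 5 were higher and 22 lower in P than in G of 36 tested, and 17 were above and 2 below the ZSY midpoint in QHP and L2025 of 36 tested. Most of the other wall genes called were lower in the purple leaves of each comparison. The list holds only genes that the study found differentially expressed in these libraries, so nothing is read from these counts.

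The cytoskeletal protein binding group held Podel.01G434000 and Podel.04G176200. Podel.01G434000 (chromosome 1, 46749643 to 46756469, plus strand, 17 exons) is listed for microtubule motor activity. In flowering plants such motors are kinesins, which move cargo and organize the spindle and the division plane. It was measured at 0.555, 0.829, and 0.466 FPKM in F_P and at 13.5, 14.2, and 11.7 FPKM in F_G, and at 13.3, 12.9, and 13.9 FPKM in P and 11.2, 10.9, and 13.7 FPKM in G. F_G, P, and G overlapped, and only F_P was low. In QHP and L2025 it was above the ZSY midpoint by 1.52 ± 0.09 (adjusted p = 2.98e-08, limma). At its end it overlaps 39 bases of a gene on the other strand, at 47.4 FPKM in F_P and 73.8 FPKM in F_G, and fragments of these bases cannot be assigned without strand.

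Podel.04G176200 (chromosome 4, 18727290 to 18728699, plus strand, 3 exons) was measured at 0.636, 1.504, and 2.29 FPKM in F_P and at 19.4, 12.3, and 13.7 FPKM in F_G, and at 8.49, 12.5, and 11.4 FPKM in P and 11.5, 10.9, and 14.2 FPKM in G. The distance of QHP and L2025 from the ZSY midpoint was 1.01 ± 0.17 (adjusted p = 0.00034, limma), just past the minimum of 1, and it was 0.87 to 0.99 when any of 6 of the 12 libraries was left out. Of the 35 other genes listed for cytoskeletal protein binding, 1 was higher and 18 lower in F_P of 28 tested, 2 were higher and 25 lower in P than in G of 32 tested, and 10 were above and 0 below the ZSY midpoint in QHP and L2025 of 34 tested. This list was also chosen on the same libraries, and nothing is read from its counts.

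Further genes for enzymes that act on sugars were likewise low in F_P only. Podel.16G091800 (chromosome 16, 7428192 to 7430532) is listed for the transfer of hexosyl groups, the step that adds a sugar to an acceptor such as a polysaccharide, a flavonoid, or a hormone. Its level was determined at 0.952, 1.25, and 0.498 FPKM in F_P and at 17.9, 19.9, and 17.4 FPKM in F_G, and at 13.2, 12.8, and 11.7 FPKM in P and 16.4, 13.4, and 17.7 FPKM in G. In QHP and L2025 it was above the ZSY midpoint by 1.32 ± 0.10 (adjusted p = 4.87e-07, limma). Podel.05G025400 (chromosome 5, 1810398 to 1814690), listed for glycosaminoglycan degradation, averaged 1.09 ± 0.13 FPKM in F_P and 15.6 ± 2.3 FPKM in F_G, and 14.1 ± 1.5 FPKM in P and 15.6 ± 2.8 FPKM in G (SD, n = 3 each). The pathway is that of animals, and in plants its listed enzymes are glycosidases of other substrates. In QHP and L2025 it was above the midpoint by 1.42 ± 0.10 (adjusted p = 1.84e-07, limma).

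Podel.16G117800 (chromosome 16, 11738703 to 11741667) has the term copper ion binding, which covers oxidases and electron carriers that hold copper. It was measured at 1.11, 0.982, and 1.09 FPKM in F_P and at 20.6, 17.7, and 17.4 FPKM in F_G, and at 21.6, 23.5, and 24.1 FPKM in P and 17.3, 16.8, and 17.4 FPKM in G. The 3 libraries of P were above all others, and those of F_P lay near 1 FPKM. In QHP and L2025 it was above the ZSY midpoint by 1.72 ± 0.06 (adjusted p = 5.85e-10, limma), a midpoint that the low F_P draws down.

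P and G lay between F_P and F_G in 3 further genes. Podel.01G224700 (chromosome 1, 22470322 to 22474388), listed for serine-type peptidase activity, averaged 22.6 ± 1.4 FPKM in F_P and 123 ± 5.7 FPKM in F_G, and 56.5 ± 2.4 FPKM in P and 66.0 ± 4.0 FPKM in G (SD, n = 3 each). Podel.01G128800 (chromosome 1, 10513621 to 10520755), of purine metabolism, averaged 4.00 ± 0.40 FPKM in F_P and 21.96 ± 1.5 FPKM in F_G, and 11.3 ± 1.2 FPKM in P and 15.5 ± 1.1 FPKM in G. Podel.10G061500 (chromosome 10, 8009558 to 8015199), of endocytosis, the uptake of membrane into vesicles, averaged 1.27 ± 0.24 FPKM in F_P and 19.96 ± 3.4 FPKM in F_G, and 9.39 ± 1.1 FPKM in P and 11.8 ± 2.3 FPKM in G. The distances of QHP and L2025 from the ZSY midpoint were 0.20, 0.41, and 0.74, below the minimum of 1.

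Podel.11G126700 (chromosome 11, 15325872 to 15326621, a single exon), listed for nucleotide excision repair of DNA, was the most abundant of the 15 genes. Its level was determined at 102, 116, and 106 FPKM in F_P and at 617, 569.5, and 596 FPKM in F_G, and at 329.8, 315, and 293 FPKM in P and 226, 211, and 232 FPKM in G. All 4 groups were apart from each other, with P and G between F_P and F_G. The distance of QHP and L2025 from the ZSY midpoint was 0.06 ± 0.05 (adjusted p = 0.289, limma).

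In contrast, 3 genes with a term had both P and G nearer to purple ZSY leaves, of which 2 had even replicates. Podel.14G169700 (chromosome 14, 12847375 to 12849989, plus strand, 9 exons) is listed for steroid biosynthesis, the pathway of membrane sterols and the precursors of brassinosteroids. It was measured at 3.61, 5.14, and 3.84 FPKM in F_P and at 52.9, 50.3, and 47.4 FPKM in F_G, and at 11.7, 9.84, and 12.0 FPKM in P and 13.1, 12.5, and 12.5 FPKM in G. F_G stood apart as high, and P and G were both above F_P without overlap. Podel.07G038100 (chromosome 7, 3123329 to 3124421, a single exon), of the plant-pathogen interaction pathway, was measured at 9.27, 12.8, and 11.7 FPKM in F_P and at 58.8, 57.4, and 66.5 FPKM in F_G, and at 17.9, 19.6, and 18.6 FPKM in P and 21.0, 19.2, and 13.7 FPKM in G. Again only F_G was high. The distances of QHP and L2025 from the ZSY midpoint were -0.33 ± 0.08 and -0.52 ± 0.10, below the minimum of 1.

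The values of 2 genes were uneven between replicates. Podel.07G026600 (chromosome 7, 2078723 to 2081763), of oxidative phosphorylation, the respiratory chain of mitochondria, was measured at 1.07, 1.71, and 1.64 FPKM in F_P and at 38.5, 25.1, and 1.39 FPKM in F_G, and at 1.51, 0.761, and 18.8 FPKM in P and 3.46, 2.91, and 1.73 FPKM in G. It was high in 2 libraries of F_G and 1 of P and at 0.761 to 3.46 FPKM elsewhere, and it was the only gene of the 65 whose F_P and F_G libraries overlapped. Podel.02G033600 (chromosome 2, 2284453 to 2286552), of the proteasome, which degrades tagged proteins, was measured at 1.03, 1.77, and 1.77 FPKM in F_P and at 20, 3.10, and 19.2 FPKM in F_G, and at 11.7, 3.04, and 14.5 FPKM in P and 5.59, 10.01, and 5.98 FPKM in G. Replicate 2 of F_G and of P were the low ones. Neither gene was called in the contrast with the ZSY midpoint (adjusted p = 0.556 and 0.221, limma).

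**Figure D4:**
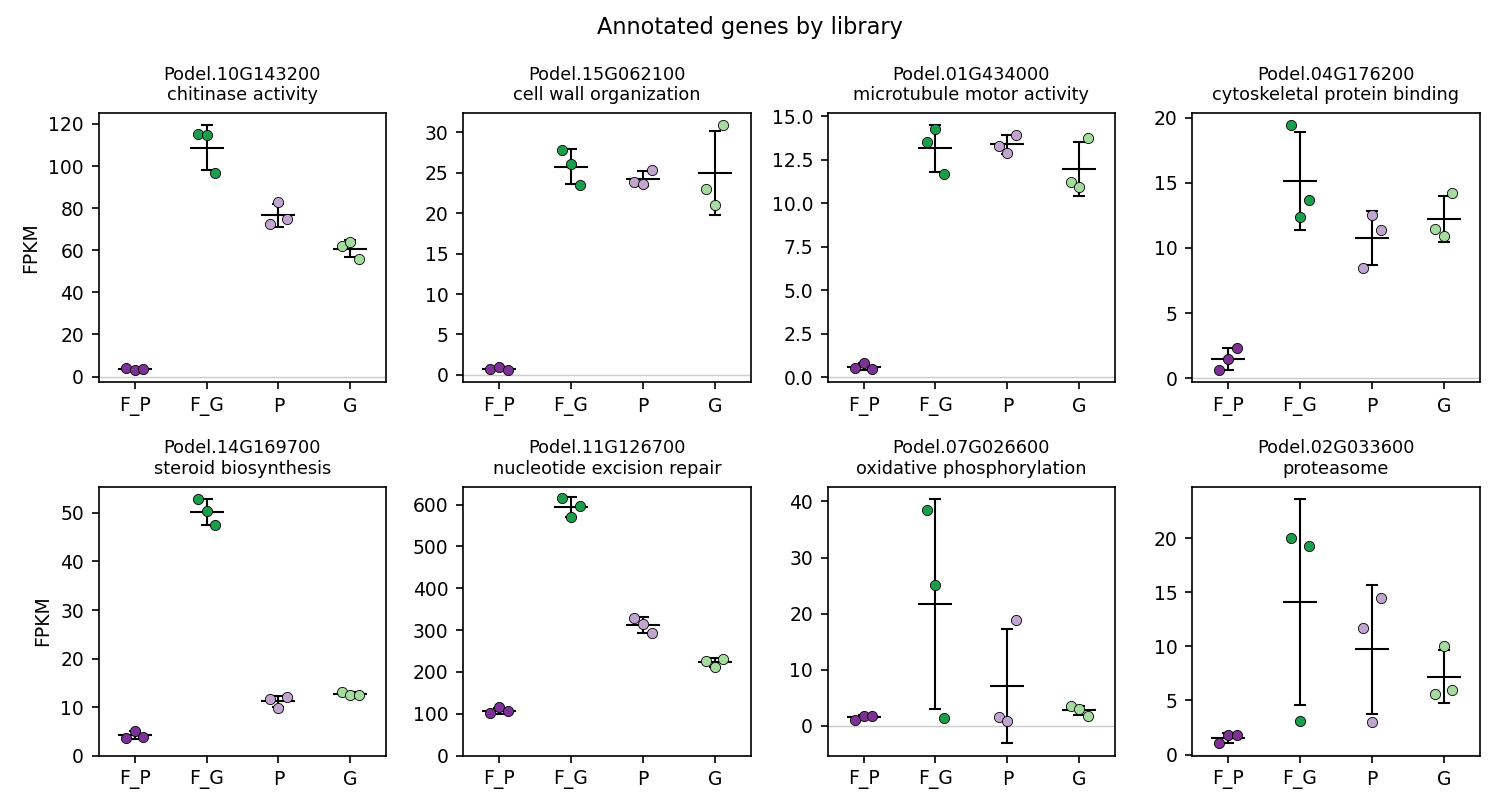
FPKM of 8 genes with a term in each library (points) with the mean and SD of 3 libraries per group. The 4 genes of the upper panels were low in F_P only, and in the lower panels F_G stands above P and G, or the libraries of a group differ widely.

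Among the 65 genes, the largest difference between purple and green ZSY leaves was that of Podel.03G105700 (chromosome 3, 12383874 to 12386202, minus strand, 4 exons), which has no term. Its level was determined at 0.565, 1.12, and 0.542 FPKM in F_P and at 52.2, 54.1, and 50.7 FPKM in F_G, and at 22.2, 20.2, and 22.1 FPKM in P and 21.9, 19.99, and 24.9 FPKM in G. P and G were nearly equal and lay between both ZSY groups without overlap, below F_G in every library. P and G were above the ZSY midpoint by 1.25 ± 0.09 (adjusted p = 1.61e-07, limma).

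The most abundant of the 65 genes, singled out after its values were seen, was Podel.17G118000 (chromosome 17, 12547854 to 12548821, plus strand, 2 exons), which has no term. It was measured at 356, 371, and 351 FPKM in F_P and at 2055, 2125, and 1718 FPKM in F_G, and at 327, 286, and 314 FPKM in P and 255, 255, and 326 FPKM in G. Only green ZSY leaves were high. P and G were below the ZSY midpoint, with a difference of -1.52 ± 0.07 (log2, SE; adjusted p = 7.99e-09, limma). The other of the 65 genes within 100 kb lay 9.36 kb downstream on the same strand (12558186 to 12559040), the only such pair. It averaged 83.8 FPKM in F_P and 1284 FPKM in F_G, and 155 FPKM in P and 186 FPKM in G. Both genes made up 48.5% of the summed FPKM of the 65 genes in F_G.

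The gene between this pair and another gene upstream also had 2 exons and a lower level in purple ZSY leaves. The gene between the pair (12553326 to 12554156, plus strand, 2 exons) averaged 231 FPKM in F_P and 1277 FPKM in F_G, and 225 FPKM in P and 136 FPKM in G, and was outside the rule by its d2 of 0.77. The upstream gene (12539441 to 12540406, plus strand, 2 exons) averaged 226 FPKM in F_P and 928 FPKM in F_G, and 158 FPKM in P and 28.3 FPKM in G, with a d2 of 2.45. Thus 4 of 5 consecutive genes with 2 exons, of 535 to 669 bases of exon in these 4, were lowered in purple ZSY leaves with a d1 of -3.92 to -2.04, and 1 gene among them was hardly expressed. In contrast, the following genes, with 9 and 8 exons, had a d1 of 0.38 and 0.47. Sequences of these genes were not analysed here, and whether fragments were shared between similar copies was not tested.

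**Figure D5:**
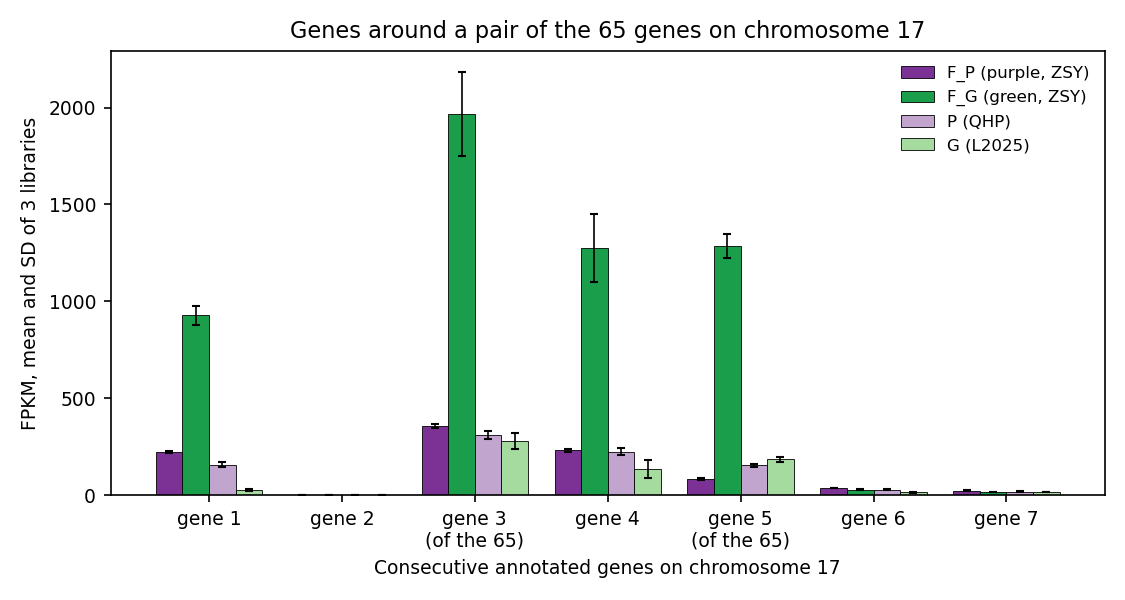
Mean and SD of FPKM (3 libraries per group) of 7 consecutive annotated genes on chromosome 17, in order of position. Genes 1, 3, 4, and 5 were high in F_G (928 to 1966 FPKM), and P and G were at 28.3 to 309 FPKM in these genes.

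The gene models of the 65 genes were compared with those of the 27631 annotated genes tested. A single exon was found in 24 of the 65 genes (36.9%) and in 14.6% of the genes tested. The share was 20.4% in the 216 genes lowered in both purple groups. It was 26.1% in all 506 genes lowered in purple ZSY leaves, which include the 65 and the 216. The median exon length was 1169 bases in the 65 genes (range 156 to 3052) and 1574 bases in the genes tested. The 24 genes with a single exon had a median length of 800 bases and a median d1 of -2.86, against -2.87 in the 41 genes with several exons. Of the 10 genes with at least 100 FPKM in F_G, 5 had a single exon and 2 had 2 exons. The genes lay on all 19 chromosomes, with most on chromosome 1 (11 genes, 16.9%, against 11.7% of the genes tested), and 36 were on the plus strand (55.4%, against 50.1%). Another annotated gene was overlapped by 5 of the 65 genes, on the other strand in 3 cases, so that the values of these 5 are less certain.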

How the data were processed

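RNA-seq was performed on 12 libraries of leaves. Reads were mapped with HISAT2, followed by StringTie, according to the submitters' notes and the study's methods. Tool versions: not given in the sources used here. Gene-level FPKM were deposited by the authors for every library, with a gene annotation that names no build and from which coordinates were taken. FPKM multiplied by exon length and by a library size gave whole fragments (within 0.02) for 100% of values checked, up to 2000 fragments. This library size was inferred for each library from the same values. It was 1.08 to 1.09 times the fragments on annotated genes in P and 0.942 to 0.966 times in G. In F_P it was 0.995 to 1.002 times and in F_G 1.03 to 1.05 times. The deposited FPKM thus carry a scaling that differs between groups, on which d2 rests. Log2(FPKM + 1) values, which understate changes of low genes, were fitted by limma 3.58.1 with a trend (R 4.3.3), using genes that reached 1 FPKM in 3 or more libraries of the fit and Benjamini-Hochberg adjustment over all genes tested. The contrast of QHP and L2025 against ZSY was fitted on all 12 libraries. Python 3.11.15 with numpy 2.4.6, pandas 2.3.3, and matplotlib 3.10.9 served for tables and plots. The procedure was tested on simulated data. The genes, lists, and tests were chosen with earlier results of these data known. The genes named were the 2 with the largest fall in F_P, up to 4 per term by the mean in F_G, and among genes with a term the 2 highest and 2 lowest in the cultivar contrast. Intervals between replicates cover these samples only. Alternatives were another pseudocount, scaling, filter, threshold, or model, a block for the replicate number, and 1 library left out at a time. No sequences are shown because no file used here holds them for these identifiers.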

Additional observations from a re-analysis of the deposited data

How the results depend on the processing

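The number of genes that met the rule depended on its limits. It was 140 with a d1 of at most -1.5, 42 with d2 within 0.25 and 149 with d2 within 1, and 40 with at least 20 FPKM in F_G. Leaving out 1 library at a time gave 64 to 70 genes, and 49 of the 65 genes met the rule in all 12 of these cases. The 16 others included Podel.07G026600, Podel.02G033600, and Podel.11G126700. Scaling the libraries to equal totals moved the median d2 of all genes by 0.28, and 81 genes then met the rule, of which 50 were among the 65, so that P and G being alike in level depends on the scaling. Without a minimum fold change, 42 of the 65 genes were above and 13 below the ZSY midpoint in QHP and L2025, against 29.6% and 26.0% of all genes tested. Over all genes tested, limma called 1448 above and 1310 below in this contrast, against 2939 and 2174 with a pseudocount of 0.1 and 2917 and 2095 with limma's voom on the recovered fragments. In the 65 genes both gave 27 above and 5 below. Leaving out 1 library gave 22 to 23 above and 5 below, and the call of Podel.04G176200 was lost in 6 of these 12 cases (0.87 to 0.99 without F_P replicate 1, F_G replicate 2 or 3, P replicate 2 or 3, or G replicate 3). Podel.10G061500 was called above the midpoint with a pseudocount of 0.1 (1.02) and with voom (1.05). Counts of genes nearer to F_G or to F_P moved by at most 2. The same replicate number did not pair libraries (r of deviations -0.24 to 0.09 over 18 pairs), and with the replicate number as a block 23 genes were above and 5 below.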

Other observations

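The opposite pattern was rarer. With d1 of at least 2, d2 within 0.5 of 0, and at least 10 FPKM in F_P, 13 genes were raised in purple leaves of ZSY only, against 65 genes lowered. The study itself reports more lowered than raised genes in its comparison of the ZSY leaves. Genes raised in purple ZSY leaves whatever their d2 were not counted here. The imbalance is therefore not read as a trait of the pattern in ZSY only. Of these 13 genes, 0 were above and 4 were below the ZSY midpoint (the mean log2 level of F_P and F_G) in QHP and L2025 (limma, median of -0.80), a position that their choice affects as in the 65 genes, and 1 had a single exon. Without the minimum of 10 FPKM in F_G, 52 further genes with a lower level in F_G would have joined the 65.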
